A study of Mus musculus with 6 samples.

Results

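Primitive endoderm is the cell layer of the early mouse embryo that lines the blastocyst cavity and gives rise to the visceral and parietal endoderm of the yolk sacs. A set of 10 genes that mark it was followed here: the transcription factor genes Gata4, Gata6, Sox17 and Sox7, the receptor tyrosine kinase gene Pdgfra, the endocytic adaptor gene Dab2, the receptor pair Cubn and Amn, and the laminin chain genes Lama1 and Lamc1. The genes were chosen by name, as known markers, but with earlier results of these data known. All 10 were found among the 19467 gene symbols of the count table, where 9 of the 10 passed the filter on low counts. The cells were E14Tg2A mouse embryonic stem cells, a cell line grown with serum and leukaemia inhibitory factor (LIF), a cytokine that holds such cells in the pluripotent state. Antisense oligonucleotides (ASOs) were delivered by nucleofection at 5 nmol, either one against LINE1, an abundant family of retrotransposons, or the control labelled RC. RNA was taken 48 h later from 300000 cells sorted for the fluorescent dye on the oligonucleotide, in 3 libraries with the LINE1 ASO and 3 with the RC ASO. Both arms therefore share the cell line, the electroporation, the dye and the sort, and each library is a bulk sample in which fewer cells of a type and less RNA per cell cannot be told apart.

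In the inner cell mass, signalling through fibroblast growth factor receptors favours Gata6 over the epiblast factor Nanog, and Gata6 acts upstream of Gata4, Sox17 and Sox7 as primitive endoderm forms. The cells then carry the platelet-derived growth factor (PDGF) receptor alpha on their surface, take up maternal proteins through cubilin, amnionless and Dab2, and lay down a basement membrane built on laminin. Embryonic stem cells derive from the epiblast side of this choice, and cultures in serum hold a small and changing number of cells with primitive endoderm transcripts.

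The libraries held 26633433 to 31704616 gene-assigned reads in the LINE1 ASO arm and 19954026 to 29092272 in the RC ASO arm. Expression is given in CPM, counts scaled to a fixed library total, after scaling by trimmed mean of M-values (TMM) factors. Reads were summed over the 6 L1Md repeat names, which are LINE1 subfamilies of the mouse. They came to 7220, 3275 and 6586 CPM in LINE1 ASO replicates 1, 2 and 3. In RC ASO replicates 1, 2 and 3 they came to 7891, 3931 and 7780 CPM. The arms overlapped, and within each replicate number the LINE1 ASO library had the lower value. Pou5f1, a core pluripotency factor, averaged 824 ± 44.9 CPM in the LINE1 ASO arm and 1058 ± 70.2 CPM in the RC ASO arm (SD, n = 3 each). Of the 41 other markers of primitive, visceral and parietal endoderm listed in the count data, 34 passed the count filter and 7 did not, and together they summed to 1180 to 1307 CPM in the LINE1 ASO libraries and 1147 to 1313 CPM in the RC ASO libraries. The list was uneven: the apolipoprotein gene Apoe averaged 256 ± 66.1 CPM in the LINE1 ASO arm and 284 ± 103 in the RC ASO arm (SD, n = 3 each), whereas the alpha-fetoprotein gene Afp had 1 to 3 reads in each LINE1 ASO library and 0 in the RC ASO libraries, and the transthyretin gene Ttr had 0 reads in the LINE1 ASO libraries and 2 reads in 1 RC ASO library. Afp and Ttr were named after their values were seen.

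The 10 genes did not move as a group. With the LINE1 ASO, Cubn rose 3.74-fold and Pdgfra 2.54-fold, while Lama1 fell to 0.552 of its RC ASO level. The other 6 tested genes did not pass the threshold: Lamc1 stood at 0.739 of its RC ASO level, Gata4 at 1.43, Sox7 at 1.30, Gata6 at 1.16, Amn at 1.00 and Dab2 at 0.934. The threshold for a call was 0.05 for the adjusted p of edgeR, a count model whose quasi-likelihood p-values were corrected over all 14725 genes tested by the Benjamini-Hochberg method. Of the 9 tested genes of the set 2 were called higher and 1 lower, against 4.93% and 1.17% (6.11% in all) of all genes tested. The arms did not overlap for 2 genes with the LINE1 ASO above and 2 with the LINE1 ASO below, against 28.7% of all genes in either direction. DESeq2, run as an alternative, called 2 of the 9 higher and 2 lower, against 6.37% and 3.56% of all genes (9.92% in all). The median log2 fold change was 0.22 over the 9 genes and 0.01 over all genes tested.

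**Figure D1:**
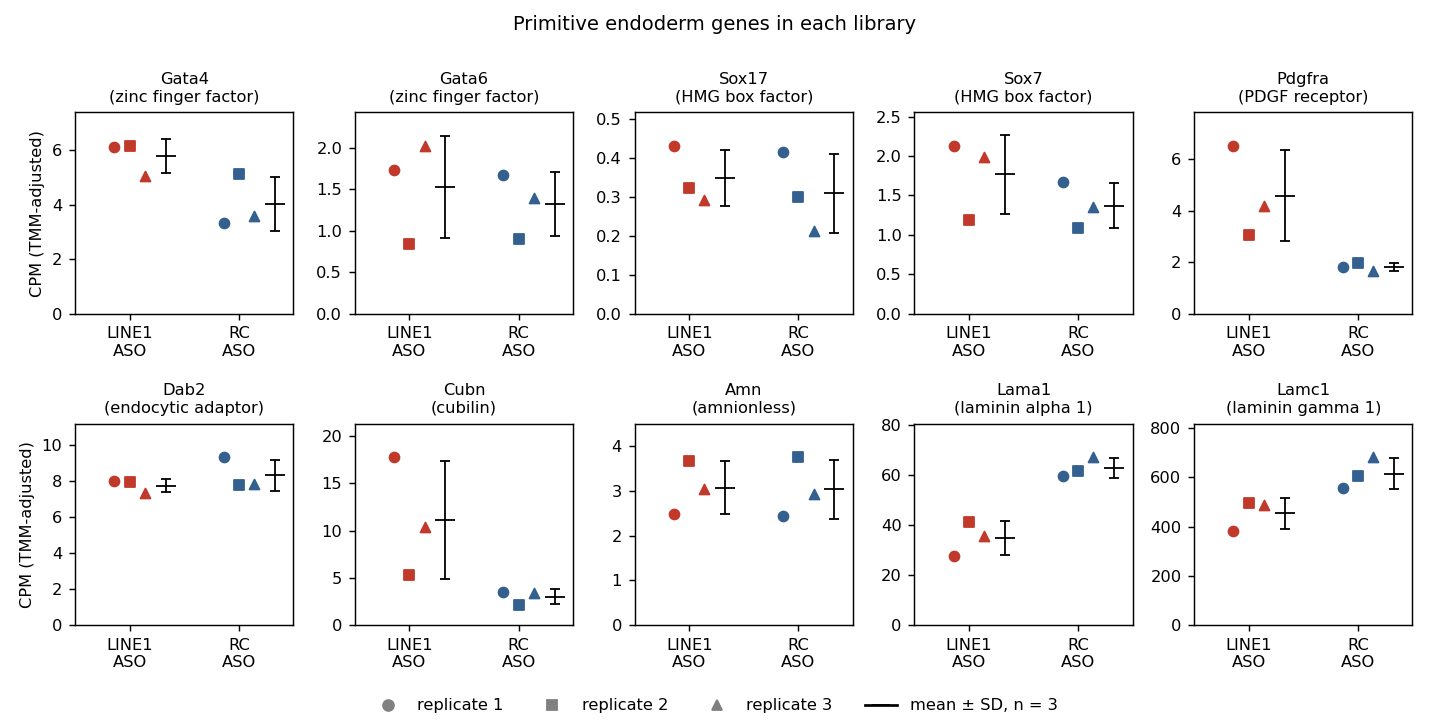
Each panel shows 1 gene, with CPM on a linear axis from 0 for the 3 LINE1 ASO libraries (red, left) and the 3 RC ASO libraries (blue, right), a marker shape per replicate number, and the mean ± SD beside each arm. The arms separate for Pdgfra and Cubn (LINE1 ASO above) and for Lama1 and Lamc1 (LINE1 ASO below), and overlap for the other 6 genes.

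Per length of transcript the laminin genes stood above the rest, and of them only Lamc1 stood far above. CPM was divided by the length of each gene's longest GENCODE transcript, which need not be the transcript these cells use. On this scale Lamc1 averaged 59.6 ± 8.39 CPM per kb in the LINE1 ASO arm and 80.6 ± 8.21 in the RC ASO arm, and Lama1 3.64 ± 0.714 in the LINE1 ASO arm and 6.59 ± 0.410 in the RC ASO arm (SD, n = 3 each). Below them in the LINE1 ASO arm came Amn at 1.81 CPM per kb, Gata4 at 1.70, Dab2 at 1.66, Cubn at 0.991, Pdgfra at 0.670, Sox7 at 0.536, Gata6 at 0.472 and Sox17 at 0.108. The ranges of each neighbouring pair in this order overlapped from Amn down to Gata6, so the order of neighbours there is not resolved. Amn, Gata4 and Dab2 (lowest library 1.47, 1.49 and 1.57) still lay wholly above Pdgfra, Sox7 and Gata6 (highest library 0.951, 0.644 and 0.624). Gata6 and Sox17 did not overlap. In the RC ASO arm the order below the laminins was Amn at 1.79 CPM per kb, Dab2 at 1.78, Gata4 at 1.18, Sox7 at 0.415, Gata6 at 0.408, Cubn at 0.266, Pdgfra at 0.264 and Sox17 at 0.0957. Here the neighbours Amn and Dab2, Sox7 and Gata6, Gata6 and Cubn, and Cubn and Pdgfra overlapped. Cubn and Pdgfra thus ranked above Sox7, Gata6 and Sox17 in the LINE1 ASO arm, with ranges that overlapped those of Sox7 and Gata6, and above Sox17 alone in the RC ASO arm.

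**Figure D2:**
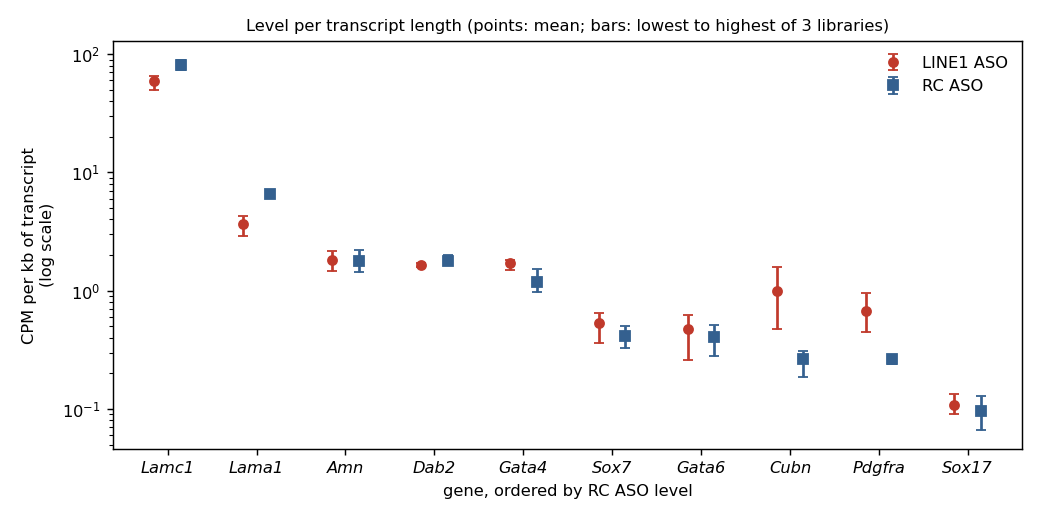
The y axis gives CPM per kb of transcript on a log scale for the 10 genes, ordered along the x axis by their RC ASO mean. Points are means of 3 libraries (LINE1 ASO red circles, RC ASO blue squares) and bars run from the lowest to the highest library. Lamc1 and Lama1 stand above the other genes in both arms, and Cubn and Pdgfra are the genes whose LINE1 ASO ranges lie above their RC ASO ranges.

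The transcription factors were expressed at a few CPM or less. Gata4, a zinc finger factor that activates endodermal genes, had 6.13, 6.15 and 5.07 CPM in LINE1 ASO replicates 1, 2 and 3, against 3.33, 5.14 and 3.60 CPM in RC ASO replicates 1, 2 and 3. Only the highest RC ASO library, replicate 2, reached above a LINE1 ASO library, replicate 3. The log2 fold change of Gata4 was 0.52 ± 0.21 (SE, edgeR adjusted p = 0.192). With the replicate number as a block the estimate was the same size, 0.52 ± 0.14, and passed with edgeR adjusted p = 0.0191, in a fit that called 33.7% of all genes (17.6% higher and 16.1% lower). Over all alternatives the adjusted p of Gata4 ran from 0.0191 to 0.462.

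Gata6, the zinc finger factor at the head of the programme, had 1.73, 0.838 and 2.02 CPM in LINE1 ASO replicates 1, 2 and 3, against 1.67, 0.901 and 1.39 CPM in RC ASO replicates 1, 2 and 3. Replicate 2 was the lowest library of both arms, and the arms overlapped. The log2 fold change was 0.22 ± 0.38 (SE, edgeR adjusted p = 0.784), and it moved to -0.05 without LINE1 ASO replicate 3 and to -0.02 without RC ASO replicate 2.

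Sox7 and Sox17 belong to the SoxF group of high mobility group (HMG) box factors. Sox7 had 2.13, 1.19 and 1.98 CPM in LINE1 ASO replicates 1, 2 and 3, against 1.67, 1.09 and 1.36 CPM in RC ASO replicates 1, 2 and 3. Replicate 2 was again the lowest of each arm, and the log2 fold change was 0.38 ± 0.29 (SE, edgeR adjusted p = 0.504). Sox17 had 14, 10 and 8 reads in LINE1 ASO replicates 1, 2 and 3, against 8, 8 and 6 reads in RC ASO replicates 1, 2 and 3, too few for the filter. As CPM its arms overlapped, at 0.294 to 0.431 in the LINE1 ASO arm and 0.214 to 0.417 in the RC ASO arm, and no difference was detectable at this depth. Among the other GATA and SoxF factors (Gata1, Gata2, Gata3, Gata5 and Sox18), 4 were tested, 0 were called by edgeR or DESeq2 and 0 had an unadjusted p under 0.05, with a median log2 fold change of 0.60. Gata2 averaged 6.17 ± 2.00 CPM in the LINE1 ASO arm and 4.12 ± 0.873 in the RC ASO arm, and Gata3 2.53 ± 0.928 in the LINE1 ASO arm and 1.60 ± 0.420 in the RC ASO arm (SD, n = 3 each). With the replicate block both Gata2 and Gata3 passed as higher (edgeR adjusted p = 0.0369 and 0.0231, with 0.0369 to 0.624 and 0.0231 to 0.667 over all alternatives).

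Pdgfra encodes the PDGF receptor that marks primitive endoderm from the blastocyst onwards and binds the ligand PDGF-A, made by the epiblast. It had 6.50, 3.06 and 4.19 CPM in LINE1 ASO replicates 1, 2 and 3, from 211, 95 and 114 reads, against 1.82, 1.95 and 1.64 CPM in RC ASO replicates 1, 2 and 3, from 35, 52 and 46 reads. All LINE1 ASO libraries lay above all RC ASO libraries, as 16.8% of tested genes did, and LINE1 ASO replicate 1 was the highest. The log2 fold change was 1.34 ± 0.30 (SE, edgeR adjusted p = 0.0420). It was 1.28 ± 0.21 with the replicate block (SE, edgeR adjusted p = 0.00125), in a fit that called 33.7% of all genes. DESeq2 gave adjusted p = 0.00195 and called 9.92% of all genes. Pdgfra did not pass in edgeR without RC ASO replicate 1 or 3 (adjusted p = 0.141 and 0.162) or LINE1 ASO replicate 1 or 3 (0.0989 and 0.112). Those fits called 169, 158, 286 and 270 of all genes higher, against 726 with all libraries. The log2 fold change of Pdgfra without LINE1 ASO replicate 1 was 0.98. The GENCODE annotation has an antisense transcript, Gm42802, over 456 exonic bases of Pdgfra. Whether the counting kept the 2 strands apart there is not known, since its strand setting was not given in the sources used here.

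Of the other PDGF ligand and receptor genes 6 were tested and 0 were called by edgeR. DESeq2 called 1 higher, against 6.37% of all genes. At an unadjusted edgeR p under 0.05 there were 2, with the share of all genes not given here. The median log2 fold change was -0.0018. Pdgfa, the gene of that ligand, averaged 46.3 ± 1.56 CPM in the LINE1 ASO arm and 36.1 ± 3.08 in the RC ASO arm (SD, n = 3 each) with no overlap of the arms, and its log2 fold change was 0.36 ± 0.09 (SE, edgeR adjusted p = 0.0564). With the replicate block Pdgfa passed as higher (adjusted p = 0.00238 in edgeR, with 0.00238 to 0.233 over all alternatives). Pdgfc, another ligand gene, averaged 27.0 ± 5.57 CPM in the LINE1 ASO arm and 30.5 ± 8.33 in the RC ASO arm.

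Cubn showed the largest fold change of the 9 tested genes. It encodes cubilin, a very large peripheral membrane protein that binds vitamin B12 with intrinsic factor, apolipoprotein A-I and albumin at the surface of visceral endoderm, kidney and gut, and that reaches the membrane only together with amnionless, the product of Amn. Cubn had 17.8, 5.35 and 10.4 CPM in LINE1 ASO replicates 1, 2 and 3, from 577, 166 and 282 reads, against 3.49, 2.10 and 3.39 CPM in RC ASO replicates 1, 2 and 3, from 67, 56 and 95 reads. The arms did not overlap, LINE1 ASO replicate 1 was the highest library, and replicate 2 was the lowest of each arm.

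The log2 fold change of Cubn was 1.90 ± 0.43 (SE, edgeR adjusted p = 0.0463). Of the 6 fits that leave out 1 library Cubn passed in 1, the fit without LINE1 ASO replicate 2 (edgeR adjusted p = 0.00748). The adjusted p was 0.117 without LINE1 ASO replicate 1, 0.120 without LINE1 ASO replicate 3, and 0.133, 0.0609 and 0.143 without RC ASO replicates 1, 2 and 3 by the same edgeR test. In the same order, these fits called 286, 270, 169, 1040 and 158 of all genes higher, against 726 with all libraries. The log2 fold change of Cubn fell to 1.37 without LINE1 ASO replicate 1. With the replicate block the log2 fold change was 1.81 ± 0.17 (SE, edgeR adjusted p = 7.90e-05), in a fit that called 33.7% of all genes. DESeq2 gave Cubn adjusted p = 9.90e-05 and called 9.92% of all genes. An opposite-strand transcript, Gm13270, covers 368 exonic bases of Cubn in the GENCODE annotation, and here too it is not known whether the strands were counted apart.

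Amn, which encodes the transmembrane partner of cubilin, had 2.50, 3.67 and 3.05 CPM in LINE1 ASO replicates 1, 2 and 3, against 2.45, 3.75 and 2.93 CPM in RC ASO replicates 1, 2 and 3. Each LINE1 ASO library lay next to the RC ASO library of its own number, and the log2 fold change was 0.01 ± 0.23 (SE, edgeR adjusted p = 0.993). Dab2, the cytoplasmic adaptor that links cubilin and megalin to clathrin, had 7.98, 7.93 and 7.34 CPM in LINE1 ASO replicates 1, 2 and 3, against 9.32, 7.77 and 7.85 CPM in RC ASO replicates 1, 2 and 3. The arms of Dab2 overlapped, with a log2 fold change of -0.10 ± 0.14 (SE, edgeR adjusted p = 0.731). The members of the uptake receptor thus differed in this comparison, with Cubn called and with Amn and Dab2 not called, although the differences between these genes were not themselves tested.

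Of 4 other genes of cubilin and megalin uptake (Lrp2, Lrpap1, Clcn5 and Folr1) 0 were called by edgeR, 1 was called lower by DESeq2 and 1 had an unadjusted p under 0.05, with a median log2 fold change of 0.14. With the replicate block 2 were higher and 1 lower, against 17.6% and 16.1% of all genes, and DESeq2 called 3.56% of all genes lower. Lrp2, the gene of megalin, the large receptor that works beside cubilin, averaged 52.0 ± 7.73 CPM in the LINE1 ASO arm and 77.6 ± 16.5 in the RC ASO arm (SD, n = 3 each) without overlap. Its log2 fold change was -0.58 ± 0.18 (SE, edgeR adjusted p = 0.102), and with the replicate block it passed as lower (adjusted p = 7.64e-05, with 7.64e-05 to 0.258 over all alternatives). Lrpap1, the chaperone gene of that receptor family, averaged 90.0 ± 8.26 CPM in the LINE1 ASO arm and 85.2 ± 6.13 in the RC ASO arm.

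Sequence upstream of a start site is shown for Cubn and Pdgfra, the members that rose, and for Dab2. Of the Dab2 windows, the 1 shown holds the only match to a GATA motif among the members matched. The 250 bases before the start come from RefSeq on build GRCm38.p6, in which 4 of the 10 genes had an entry (Pdgfra, Dab2, Cubn and Amn, with 5 windows). The windows lie at chr2:13491877-13492126 on the minus strand, chr5:75152001-75152250 on the plus strand and chr15:6299539-6299788 on the plus strand, and capitals mark a GATA match. They are written 5′ to 3′ in the direction of transcription.
Cubn: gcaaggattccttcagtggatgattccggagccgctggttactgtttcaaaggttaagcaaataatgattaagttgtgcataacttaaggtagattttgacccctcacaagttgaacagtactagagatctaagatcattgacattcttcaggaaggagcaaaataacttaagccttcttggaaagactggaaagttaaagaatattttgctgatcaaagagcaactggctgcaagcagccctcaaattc
Pdgfra: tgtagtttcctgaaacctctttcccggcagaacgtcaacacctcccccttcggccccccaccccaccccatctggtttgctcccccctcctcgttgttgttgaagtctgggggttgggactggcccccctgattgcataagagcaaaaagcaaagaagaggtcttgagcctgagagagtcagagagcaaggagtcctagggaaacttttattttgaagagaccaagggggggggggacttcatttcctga
Dab2: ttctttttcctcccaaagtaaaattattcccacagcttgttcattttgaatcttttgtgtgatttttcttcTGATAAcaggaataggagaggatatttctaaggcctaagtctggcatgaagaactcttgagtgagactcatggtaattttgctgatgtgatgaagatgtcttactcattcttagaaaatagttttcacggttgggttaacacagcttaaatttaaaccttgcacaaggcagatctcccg
The GATA motif was searched as AGATAA or AGATAG, and also with a leading T as TGATAA or TGATAG, and the SOX motif as ACAAT, on both strands. The Dab2 match, TGATAA on the written strand, ran from -179 to -174 relative to the start site of the window shown. Dab2 also has a window at another start site, chr15:6386498-6386747 on the plus strand (not shown), with 0 GATA and 0 SOX matches. Of the 5 windows of these 4 genes 1 held a GATA match and 0 held a SOX match, against 26.5% and 27.7% of 32851 windows of the same length.

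Lama1 and Lamc1 encode the alpha 1 and gamma 1 chains of laminin, the cross-shaped trimer of early embryonic basement membranes. Lama1 had 27.5, 41.0 and 35.4 CPM in LINE1 ASO replicates 1, 2 and 3, from 893, 1274 and 965 reads, against 59.5, 61.7 and 67.1 CPM in RC ASO replicates 1, 2 and 3, from 1142, 1644 and 1879 reads. All LINE1 ASO libraries lay below all RC ASO libraries, as 11.9% of tested genes did, and LINE1 ASO replicate 1 was the lowest. The log2 fold change was -0.86 ± 0.14 (SE, edgeR adjusted p = 0.0180), and 0.319% of tested genes had a value as low. It was -0.87 ± 0.09 with the replicate block (SE, edgeR adjusted p = 1.97e-04), in a fit that called 33.7% of all genes. DESeq2 gave adjusted p = 2.72e-06 and called 9.92% of all genes. Lama1 did not pass without LINE1 ASO replicate 3 (adjusted p = 0.0748) or without RC ASO replicate 1 or 3 (0.0675 and 0.0890, same edgeR test), at log2 fold changes of -0.89, -0.91 and -0.83. Those fits called 7, 2 and 4 of all genes lower, against 173 with all libraries.

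Lamc1 had 380, 494 and 487 CPM in LINE1 ASO replicates 1, 2 and 3, against 557, 605 and 681 CPM in RC ASO replicates 1, 2 and 3. The arms did not overlap and LINE1 ASO replicate 1 was again the lowest library. The log2 fold change of -0.44 ± 0.12 (SE) did not pass (adjusted p = 0.0773). It passed as lower with the replicate block (-0.44 ± 0.05, adjusted p = 1.62e-04 in edgeR), in DESeq2 (adjusted p = 0.0130) and without LINE1 ASO replicate 2 (0.0490 in edgeR), with 1.62e-04 to 0.236 over all alternatives.

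**Figure D3:**
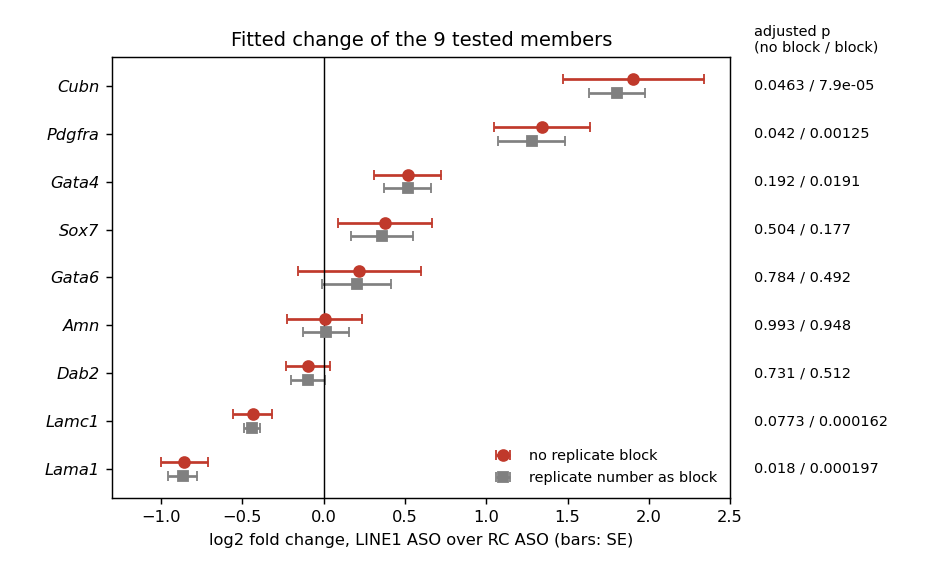
The x axis gives the fitted log2 fold change, LINE1 ASO over RC ASO, with its SE, for the 9 tested genes, as red circles without and grey squares with the replicate number as a block, and the adjusted p of both edgeR fits stand at the right. Cubn and Pdgfra lie at the top and Lama1 and Lamc1 at the bottom in both fits, and the block narrows the error bars of each gene.

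The other laminin chains went in both directions. Of 9 tested, 1 was called higher and 0 lower, against 4.93% and 1.17% of all genes. With the replicate block 3 were higher and 1 lower, against 17.6% and 16.1%. The median log2 fold change was -0.06. Lamb1, whose beta chain joins the products of Lama1 and Lamc1 in one trimer, averaged 146 ± 22.6 CPM in the LINE1 ASO arm and 186 ± 16.3 in the RC ASO arm (SD, n = 3 each) without overlap. Its log2 fold change was -0.35 ± 0.12 (SE, edgeR adjusted p = 0.133), and it passed as lower with the replicate block (adjusted p = 4.85e-04, with 4.85e-04 to 0.337 over all alternatives). Lamc3, a gamma chain gene better known from brain and skin, had 40, 57 and 32 reads in LINE1 ASO replicates 1, 2 and 3, against 3, 10 and 4 reads in RC ASO replicates 1, 2 and 3. It rose 6.08-fold to 1.41 ± 0.366 CPM in the LINE1 ASO arm, against 0.225 ± 0.131 CPM in the RC ASO arm (adjusted p = 0.0148). Lamc3 did not pass without RC ASO replicate 1 or 3 (adjusted p = 0.0754 and 0.0845 in edgeR). Those fits called 169 and 158 of all genes higher, against 726 with all libraries. The log2 fold change of Lamc3 was 3.20 without RC ASO replicate 2, against 2.60 with all libraries. Lama5, the most abundant alpha chain gene of the list in CPM, averaged 419 ± 33.3 in the LINE1 ASO arm and 436 ± 14.9 in the RC ASO arm.

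Of 17 genes of proteins that assemble with laminin or bind it in the basement membrane, 0 were called by edgeR. DESeq2 called 1 lower, against 3.56% of all genes. At an unadjusted edgeR p under 0.05 there were 3, with the share of all genes not given here. The median log2 fold change was -0.08. Nid2, a nidogen that bridges laminin and collagen IV, averaged 580 ± 29.4 CPM in the LINE1 ASO arm and 626 ± 5.96 in the RC ASO arm (SD, n = 3 each). Col18a1, a collagen of basement membranes, averaged 464 ± 19.9 CPM in the LINE1 ASO arm and 508 ± 29.3 in the RC ASO arm. With the replicate block 3 of the 17 were higher and 3 lower, against 17.6% and 16.1% of all tested genes.

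Between libraries of the same replicate number Cubn and Pdgfra were higher and Lama1 and Lamc1 lower in each of the 3 pairs. The arms of these genes did not overlap, so any pairing of the libraries would give the same signs. The log2 ratios in numbers 1, 2 and 3 were 2.35, 1.35 and 1.61 for Cubn. For Pdgfra they were 1.83, 0.65 and 1.35. For Lama1 they were -1.11, -0.59 and -0.92, and for Lamc1 -0.55, -0.29 and -0.48. In each of these 4 genes number 1 gave the ratio of greatest size and number 2 the smallest. Gata4 and Sox7 were also above 0 in each pair, at 0.88, 0.26 and 0.49 for Gata4 and 0.35, 0.13 and 0.55 for Sox7. Sox17 was above 0 in each pair as well, at 0.050, 0.10 and 0.46 from 6 to 14 reads per library, while Gata6, Dab2 and Amn changed sign between pairs. The share of all genes with the same sign in all 3 pairs is not given here. Without both replicate 2 libraries edgeR called 3 of the 10 genes higher and 1 lower, against 12.2% and 8.3% of all genes (20.5% in all).

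**Figure D4:**
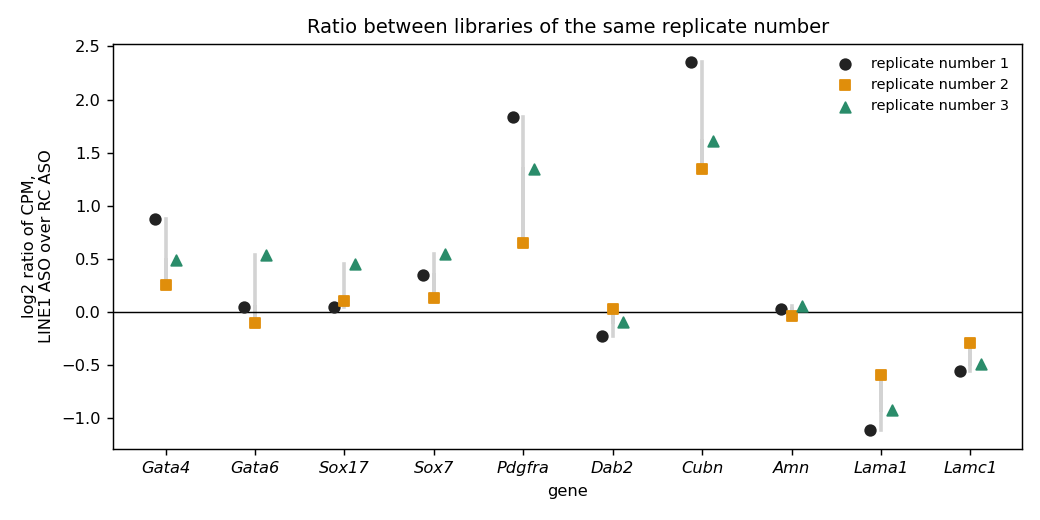
The y axis gives the log2 ratio of CPM between the LINE1 ASO and the RC ASO library of the same replicate number, for each of the 10 genes along the x axis, with a shape and colour per number. Cubn and Pdgfra lie above 0 and Lama1 and Lamc1 below 0 in all 3 numbers, which follows from their arms not overlapping. Number 2 (orange squares) lies nearest to 0 in these genes.

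Markers of other cell types were measured in the same libraries. The 7 markers of 2-cell-like cells in the table, rare cells that resemble the 2-cell embryo, were all called higher, and they summed to 239, 95.5 and 118 CPM in LINE1 ASO replicates 1, 2 and 3, against 7.92 to 10.6 CPM in the RC ASO libraries. LINE1 ASO replicate 1 was thus highest, and replicate 2 lowest, for these markers as for Cubn and Pdgfra, and their part in the changes of Cubn, Pdgfra, Lama1 and Lamc1 was not tested. The 10 pluripotency markers summed to 4068 to 4900 CPM in the LINE1 ASO arm and 5449 to 5891 CPM in the RC ASO arm, with all 10 log2 fold changes below 0 and 0 markers without reads. Of these 10, edgeR called 1 lower, DESeq2 3 and edgeR with the replicate block 9, against 1.17%, 3.56% and 16.1% of all genes. Trophectoderm markers summed to 103 to 113 CPM in the LINE1 ASO arm and 95.1 to 106 CPM in the RC ASO arm, with 1 of 6 tested called higher (3 higher and 1 lower with the block). The mesoderm and definitive endoderm markers spanned 26.4 to 43.9 CPM in the LINE1 ASO arm and 24.0 to 42.5 CPM in the RC ASO arm, with 0 of 7 tested called by edgeR, 0 by DESeq2 and 2 at an unadjusted p under 0.05, and with 3 higher and 0 lower under the block, against 17.6% and 16.1% of all genes. Fibroblast markers spanned 44.1 to 64.5 CPM in the LINE1 ASO arm and 49.3 to 75.4 CPM in the RC ASO arm, with 0 of 6 called by edgeR, 0 by DESeq2 and 1 at an unadjusted p under 0.05, and with 1 higher and 2 lower under the block. Neural markers spanned 136 to 158 CPM in the LINE1 ASO arm and 113 to 144 CPM in the RC ASO arm. Of 6 tested 1 was called higher (2 with the block). Of all genes 17.6% were called higher and 16.1% lower with the block, against 4.93% and 1.17% without it.

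A wider list of 44 markers of primitive, visceral and parietal endoderm gave few calls in the main edgeR fit. The count data held 41 of them and 34 were tested, of which 1 was called higher and 0 lower, a share near the 4.93% and 1.17% of all genes, and the median log2 fold change was 0.19. The gene called was Lefty1, a secreted Nodal antagonist of the anterior visceral endoderm that stem cells also make, at 86.0 ± 20.4 CPM in the LINE1 ASO arm and 42.4 ± 6.24 in the RC ASO arm (SD, n = 3 each), a 2.03-fold increase (adjusted p = 0.0239). Lefty1 did not pass without LINE1 ASO replicate 1 or 3 (adjusted p = 0.0694 and 0.0826 in edgeR) or RC ASO replicate 1 or 3 (0.0562 and 0.108). Those fits called 286, 270, 169 and 158 of all genes higher, against 726 with all libraries. Sall4, a zinc finger factor of both stem cells and primitive endoderm, averaged 401 ± 60.8 in the LINE1 ASO arm and 406 ± 69.6 in the RC ASO arm. DESeq2 called 5 of the 34 higher and 0 lower, against its 6.37% and 3.56% of all genes. With the replicate block 10 of the 34 were higher and 4 lower, against 17.6% and 16.1% of all genes. At an unadjusted edgeR p under 0.05 there were 7 higher and 3 lower. The arms did not overlap for 8 with the LINE1 ASO above and 2 with it below, against 16.8% and 11.9% of all genes.

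The genes of the fibroblast growth factor pathway and of the epiblast side of the choice were listed as well. Of 23 tested, 0 were called by edgeR, and 6 had an unadjusted edgeR p under 0.05, with a median log2 fold change of -0.16. The share of all genes at that unadjusted level is not given here, so the 6 are not read as a result. DESeq2 called 1 higher and 1 lower, against 6.37% and 3.56% of all genes. Etv5, a transcription factor gene induced by the pathway, averaged 605 ± 4.64 CPM in the LINE1 ASO arm and 627 ± 47.8 in the RC ASO arm. Esrrb, an orphan nuclear receptor of naive pluripotent cells, averaged 492 ± 105 CPM in the LINE1 ASO arm and 641 ± 79.3 in the RC ASO arm (SD, n = 3 each), and with the replicate block it passed as lower (adjusted p = 3.04e-04, with 3.04e-04 to 0.408 over all alternatives). With the block 4 of the 23 were higher and 6 lower, against 17.6% and 16.1% of all genes.

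**Figure D5:**
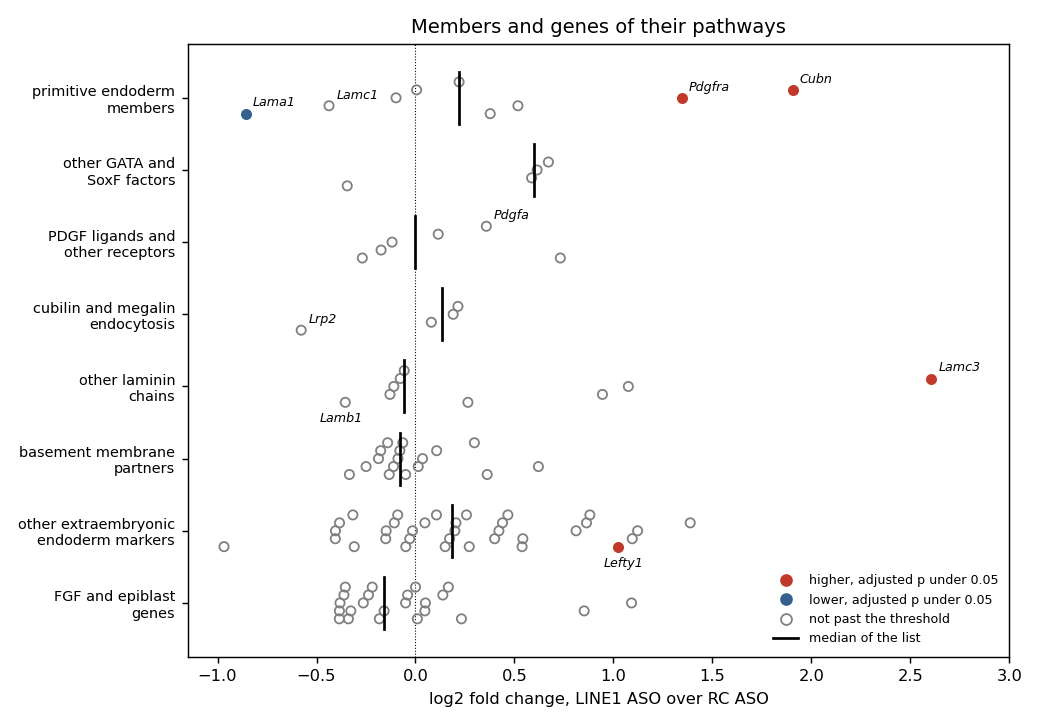
Each point is a tested gene, placed by its log2 fold change, LINE1 ASO over RC ASO, on the x axis and by list on the y axis, with filled points for genes past an adjusted p of 0.05 (red higher, blue lower), open points for the rest, and a black bar at the median of each list. Beside Cubn, Pdgfra and Lama1 the filled points are Lamc3 and Lefty1.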

How the data were processed

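RNA of 6 bulk samples was sequenced from directional mRNA libraries, per the labels' protocols. Raw counts of reads, 1 column per library, were deposited by the authors for genes, listed by symbol, and for repeats, listed by name. The submitters' processing notes name TopHat2 2.0.9, HTSeq 0.6.1p1, R 3.3.0, DESeq2 1.12.3 and the mm9 build. Neither the strand setting, nor the annotation release, nor the handling of multi-mapping reads was given in the sources used here.

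The deposited counts were fitted with edgeR 4.0.16 (R 4.3.3, limma 3.58.1) after filterByExpr (minimum count 10, minimum total 15) and TMM scaling, with robust quasi-likelihood fits over 14725 genes. The SE of a log2 fold change is its size over the root of the F statistic, and p-values were adjusted by the Benjamini-Hochberg method. L1Md reads were scaled to the gene totals. DESeq2 1.42.0 was an alternative, beside RLE factors, library totals, other filters, the replicate block, a 2-fold minimum and left-out libraries. Transcript lengths and overlaps come from GENCODE M21 (GRCm38), used for no coordinate of the counts.

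The members and lists were chosen with earlier results of these data known. A gene first listed with those of cubilin uptake is not reported here, and the counts of that list leave it out. Of each list, up to 4 called genes by smallest p and the 2 most abundant others were eligible to be named. Counts at an unadjusted p under 0.05 are given without the share of all genes at that level and are not read as results. Whether replicates are separate cultures is not labelled, so a p-value here reflects only the spread among these libraries, which may be technical. Deviations from the arm means correlated at 0.436, 0.659 and 0.394 for libraries that share a number and at -0.475 to 0.220 otherwise. The numbers, which the labels give, were therefore taken to pair the libraries, in the fit with the replicate block only. The main fit leaves this pairing out, and leaving out 1 library breaks a pair. Gata4 and Lamc1, not called in the main fit, passed with the block. Within an arm, libraries differed by more than sampling noise (chi-square per degree of freedom 8.53 to 35.6).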

Additional observations from a re-analysis of the deposited data

How the results depend on the processing

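The main counts, 2 genes of the set higher and 1 lower, were unchanged with RLE factors, library totals, no count filter and the filter of 1 CPM. The number lower was 2 with DESeq2 and with the replicate block. In edgeR the block gave 3 higher and 2 lower, as 2591 and 2373 of all genes, against 726 and 173 without it. With a 2-fold minimum the number lower was 0, and of all genes tested 1 was called lower. With 1 library left out the number higher ran from 0 to 2 and the number lower from 0 to 2. Over all genes these fits called from 158 to 1040 higher and from 2 to 479 lower, against 726 and 173 with all libraries. Leaving out both replicate 2 libraries gave 3 higher, including Gata4 (edgeR adjusted p = 0.0340), and 1 lower, in a fit that called 12.2% of all genes higher and 8.3% lower. Sox17 was fitted in 7 alternatives, with log2 fold changes of -0.03 to 0.30 and adjusted p of 0.723 or above in each. The near-zero log2 fold change of Amn turned to -0.024 with DESeq2, -0.014 with RLE factors, -0.023 without a filter and -0.0040 with the filter of 1 CPM. With 1 library left out Amn ran from -0.18 to 0.16 and Gata6 from -0.050 to 0.48. Cubn, Pdgfra, Lama1 and Lamc1 kept their direction in all 13 alternatives, and so did Gata4, Sox7 and Dab2, which were not called in the main fit. The causes were not tested. Sox17, Gata6 and Sox7 had the fewest reads of the set, 6 to 69 per library, and the part of depth in their values was not tested. Of the 34 tested genes of the wider endoderm list DESeq2 called 5 higher, against 1 in edgeR, and it called 6.37% of all genes higher, against 4.93% in edgeR.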
